A study of Rattus norvegicus with 18 samples.

Results

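The genes described here are 9 markers of GABAergic interneurons, the inhibitory neurons that set the timing and gain of hippocampal circuits. They are Gad1, Gad2, Slc32a1, Pvalb, Vip, Lhx6, Calb2, Reln and Erbb4. They were chosen by symbol from the deposited count table, which lists 17455 genes. All 9 were found, and all 9 were among the 13338 genes expressed highly enough to be tested. The source of the RNA was the left hippocampus. It was taken 24 hours after the last seizure from male Sprague-Dawley rats, all of them adult. The KA model used systemic kainic acid, a glutamate receptor agonist, in rats with implanted electrodes. In the KI model, electrodes in the hippocampus delivered repeated stimulation until the rats were kindled. The groups were KA 3 Class V (n = 3), KA sham (n = 7), KI 3 Class V (n = 4) and KI sham (n = 4), and every rat was of the same outbred strain. The sources used here do not explain the name 3 Class V, nor what the sham rats of either model received.

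Interneurons make GABA from glutamate, load it into vesicles and release it onto pyramidal cells and onto each other. They fall into classes that differ in birthplace, target and molecular content. Parvalbumin cells inhibit cell bodies and axon initial segments, somatostatin cells inhibit dendrites, and many VIP and calretinin cells inhibit other interneurons. Loss or rearrangement of some of these classes is a long-studied feature of temporal lobe epilepsy. In bulk tissue, fewer cells of a class and less RNA per cell cannot be told apart.

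Total counts ran from 30925368 to 49943021 over the 18 libraries. Levels are given as CPM, counts scaled to a common library size, and can be compared between libraries but not between genes, since no gene lengths were used. The ribosomal protein score, the mean centred log2 CPM of 88 ribosomal protein genes, averaged −0.03 ± 0.11 in KA 3 Class V, 0.09 ± 0.54 in KA sham, −0.38 ± 0.13 in KI 3 Class V and 0.25 ± 0.44 in KI sham (SD). KA sham 2 and KI sham 1 had the highest scores, 0.97 and 0.69. The share of counts from ribosomal RNA-like genes was 9.67% in KA sham 4, 16.3% in KI 3 Class V 1 and 16.4% in KI sham 2, and lay between 0.571% and 2.0% in the other 15 libraries.

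In kindled hippocampus, Gad2 was the only one of the 9 markers to pass the test, and it rose. Gad1, Slc32a1 and Lhx6 also stood above every sham in all 4 KI 3 Class V libraries, and Calb2 stood below every sham, but none of these passed. Such shifts were common in KI: edgeR called 9.99% of all genes tested, and 12.1% stood above and 8.07% below every sham. In the KA model no marker passed in either direction, and for each of the 9 the KA 3 Class V and KA sham libraries overlapped. Among all genes tested, 2.95% stood above and 2.7% below every sham in KA. Calls are edgeR quasi-likelihood tests with Benjamini-Hochberg adjustment over all 13338 genes and a threshold of 0.05. The plot of marker levels by library shows every value behind these statements.

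**Figure D1:**
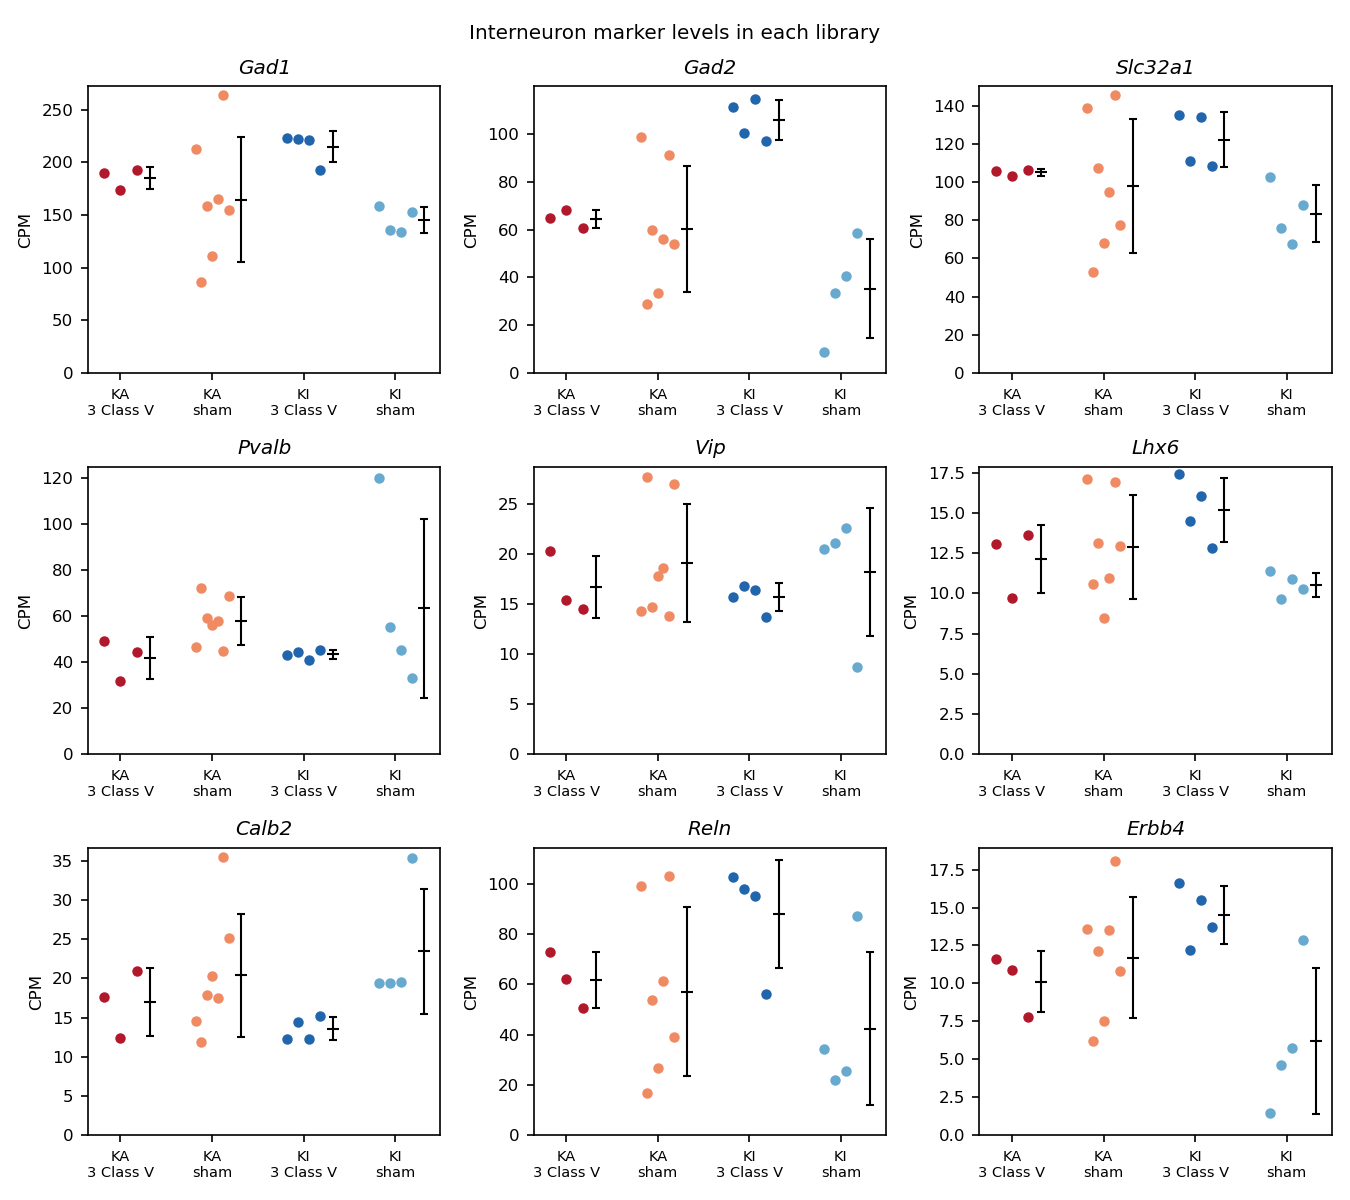
Level of each interneuron marker in CPM (y axis, linear, from 0) in each of the 18 libraries, by group (x axis). Points are libraries and the bar beside them is the mean with its SD. Gad2 lies between 97.1 and 115 CPM in the KI 3 Class V libraries and between 8.75 and 58.6 CPM in KI sham, while its KA groups overlap.

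Gad1 and Gad2 encode the 2 glutamate decarboxylases that make GABA. The Gad2 enzyme is the form concentrated at axon terminals. Slc32a1 encodes the vesicular transporter that loads GABA into synaptic vesicles. Gad2 had 111, 100.4, 115 and 97.1 CPM in KI 3 Class V, against 8.75, 33.3, 40.6 and 58.6 CPM in KI sham. No library of one group reached the other, and KI sham 1, with 253 counts, was far below the other shams. Gad2 was higher in KI 3 Class V by 1.58 ± 0.42 in log2 (SE, n = 4 each, edgeR adjusted p = 0.0358), with a 95% interval of 0.69 to 2.47. Without KI sham 1 the difference was 1.26 (edgeR adjusted p = 0.0351), but the call was lost on leaving out any 1 of 6 other KI libraries.

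Gad1 had 223, 223, 221 and 193 CPM in KI 3 Class V, against 158, 136, 134 and 152 CPM in KI sham. The lowest KI 3 Class V library was above the highest sham. The difference of 0.56 ± 0.24 in log2 (SE) did not pass (edgeR adjusted p = 0.104). Gad1 was called in 3 of 31 alternatives. Slc32a1 had 135, 111, 134 and 109 CPM in KI 3 Class V and 102, 75.7, 67.7 and 88.2 CPM in KI sham, again without overlap. Its difference, 0.55 ± 0.25 in log2 (SE), did not pass either (edgeR adjusted p = 0.124), and was called in 1 of the 31.

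The KA libraries gave no such separation. Gad1 had 189.9, 174 and 193 CPM in KA 3 Class V, and 86.7 to 264 CPM in KA sham with a median of 158. Gad2 had 64.7, 68.0 and 60.7 CPM in KA 3 Class V, and 28.9 to 98.6 CPM in KA sham with a median of 56.0. Slc32a1 had 106, 103 and 106 CPM in KA 3 Class V, and 52.8 to 146 CPM in KA sham with a median of 94.7. For all 3 genes the KA 3 Class V libraries lay close together in the middle of a wide sham range. The differences were 0.17 ± 0.23 for Gad1, 0.10 ± 0.40 for Gad2 and 0.10 ± 0.24 for Slc32a1 in log2 (SE, edgeR adjusted p = 0.850, 0.963 and 0.930). The 95% interval for Gad2 ran from −0.75 to 0.94, so a change of the size seen in KI was outside it but a smaller change of either sign was not.

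The share of Gad2 within the decarboxylase counts differed between the KI groups too, a measure that no scaling between libraries touches. It uses the same Gad2 counts as the call, so it is not separate support for that call. The ratio of Gad2 to Gad1 counts was 0.500, 0.451, 0.520 and 0.505 in KI 3 Class V, against 0.0552, 0.245, 0.303 and 0.384 in KI sham. All 4 KI 3 Class V ratios were above the highest sham ratio. In the KA model the ratio averaged 0.349 ± 0.039 in KA 3 Class V (SD, n = 3) and 0.359 ± 0.052 in KA sham (SD, n = 7). The ratio of Slc32a1 to Gad1 counts was 0.569 ± 0.050 in KI 3 Class V and 0.572 ± 0.058 in KI sham (SD, n = 4 each). Calb2 to Gad1 was also without overlap, at 0.0553 to 0.0790 in KI 3 Class V and 0.123 to 0.233 in KI sham. For Pvalb, Vip, Lhx6, Reln and Erbb4 the ratios to Gad1 overlapped between the KI groups. How often such ratios separate over all genes was not counted. In KI sham 1 the Gad2 ratio was the lowest of all libraries while Gad1 itself, at 158 CPM, was the highest of the 4 KI shams.

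The 4 genes whose KI 3 Class V libraries all stood above the shams are Gad1, Gad2, Slc32a1 and Lhx6, and their promoters are shown for that reason, although only Gad2 passed the test. Each sequence runs from 250 bases before to 50 bases after the RefSeq start of the gene, on the GRCr8 assembly and on the strand of the gene. The windows are chr3:75777202-75777501 on the plus strand for Gad1, chr17:89671468-89671767 on the plus strand for Gad2, chr3:167686995-167687294 on the plus strand for Slc32a1 and chr3:39853374-39853673 on the minus strand for Lhx6. Capitals mark the GC box, GGGCGG on either strand.
Gad1: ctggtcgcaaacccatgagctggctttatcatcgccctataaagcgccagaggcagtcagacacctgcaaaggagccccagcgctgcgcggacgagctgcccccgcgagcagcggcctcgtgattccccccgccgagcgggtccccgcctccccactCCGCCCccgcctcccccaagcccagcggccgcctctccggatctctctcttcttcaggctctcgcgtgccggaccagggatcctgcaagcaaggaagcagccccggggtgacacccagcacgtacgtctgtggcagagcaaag
Gad2: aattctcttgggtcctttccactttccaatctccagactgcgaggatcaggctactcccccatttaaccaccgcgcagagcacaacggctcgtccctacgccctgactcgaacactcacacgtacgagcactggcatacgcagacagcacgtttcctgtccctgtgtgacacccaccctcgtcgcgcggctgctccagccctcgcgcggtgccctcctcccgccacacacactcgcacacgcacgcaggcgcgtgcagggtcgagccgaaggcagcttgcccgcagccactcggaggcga
Slc32a1: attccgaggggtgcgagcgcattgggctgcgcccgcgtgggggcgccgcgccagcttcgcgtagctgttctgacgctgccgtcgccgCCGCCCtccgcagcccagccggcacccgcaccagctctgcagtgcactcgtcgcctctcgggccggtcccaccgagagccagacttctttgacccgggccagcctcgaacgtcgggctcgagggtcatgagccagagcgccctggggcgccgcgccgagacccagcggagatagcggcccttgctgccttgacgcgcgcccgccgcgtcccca
Lhx6: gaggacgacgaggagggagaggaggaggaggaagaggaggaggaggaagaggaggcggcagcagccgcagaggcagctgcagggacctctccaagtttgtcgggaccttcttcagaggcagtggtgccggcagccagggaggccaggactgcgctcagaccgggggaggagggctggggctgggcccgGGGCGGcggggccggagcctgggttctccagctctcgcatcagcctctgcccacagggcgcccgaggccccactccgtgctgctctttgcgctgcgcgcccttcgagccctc
The Gad1, Slc32a1 and Lhx6 windows hold 1 GC box each and the Gad2 window holds 0. That motif is in 34.9% of 27457 rat promoter windows of the same length. All 4 windows are rich in G and C, at 67.7% for Gad1, 63.7% for Gad2, 73.7% for Slc32a1 and 70.7% for Lhx6, against a median of 52.3% over all windows. Markers that did not separate in KI had such windows too: Pvalb held 1 GC box at 60.7%, Erbb4 held 1 at 70.3% and Reln held 4 at 79.0%, while Vip held 0 at 44.0%. Of the 9 markers, 8 have a window, and none of those 8 holds the homeodomain core TAATTA, the cyclic AMP response element TGACGTCA or the AP-1 letters TGANTCA, searched on both strands. These are in 5.35%, 1.91% and 7.33% of all windows. None of the 4 motifs contains another.

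Lhx6 encodes the LIM homeodomain factor that specifies interneurons born in the medial ganglionic eminence, the source of parvalbumin and somatostatin cells. Its level was 17.4, 14.5, 16.1 and 12.8 CPM in KI 3 Class V, against 11.4, 9.63, 10.9 and 10.3 CPM in KI sham. The groups did not overlap, and the difference was 0.53 ± 0.19 in log2 (SE, n = 4 each, edgeR adjusted p = 0.0727). In KA tissue Lhx6 had 13.1, 9.70 and 13.6 CPM in KA 3 Class V and 8.47 to 17.1 CPM in KA sham, with a sham median of 12.9. That difference was −0.09 ± 0.19 in log2 (SE, edgeR adjusted p = 0.922).

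Parvalbumin, calretinin and VIP name classes of interneuron, and none of their genes passed in either model. Pvalb encodes the calcium buffer of fast-spiking basket and axo-axonic cells. It had 43.3, 44.5, 40.9 and 45.3 CPM in KI 3 Class V, against 120.1, 55.1, 45.2 and 32.9 CPM in KI sham. The KI 3 Class V libraries lay inside the sham range, which was stretched by KI sham 1. The difference was −0.54 ± 0.28 in log2 (SE, edgeR adjusted p = 0.176) and shrank to −0.03 without KI sham 1 (edgeR adjusted p = 0.925). Without KI sham 4 it was −0.78 and passed (edgeR adjusted p = 0.0322). In KA tissue Pvalb had 49.1, 31.8 and 44.4 CPM in KA 3 Class V and 44.7 to 72.3 CPM in KA sham, with a sham median of 58.1. The difference there, −0.47 ± 0.28 in log2 (SE), was the lowest of the 9 in that model and did not pass (edgeR adjusted p = 0.619).

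Calb2 encodes calretinin, the calcium-binding protein of interneurons that contact other interneurons, and also found in some other hippocampal neurons. Its level was 12.3, 14.4, 12.3 and 15.2 CPM in KI 3 Class V, against 19.5, 19.4, 19.6 and 35.4 CPM in KI sham. All 4 KI 3 Class V libraries were below the lowest sham, and the 3 lower shams were almost equal. The difference was −0.79 ± 0.29 in log2 (SE, edgeR adjusted p = 0.0707), and −0.55 without KI sham 4 (edgeR adjusted p = 0.130). Calb2 was called in 5 of the alternatives, with DESeq2 (adjusted p = 0.0388), with limma-voom (adjusted p = 0.00632), and in edgeR without KA sham 2 (adjusted p = 0.0468), without KA sham 6 (adjusted p = 0.0431) or without KA sham 2 and KI sham 1 (adjusted p = 0.0487). These 5 fits called from 1658 to 7359 of all genes, against 1332 in the main fit. In the KA model Calb2 had 17.6, 12.3 and 20.97 CPM in KA 3 Class V, and 11.9 to 35.5 CPM in KA sham with a median of 17.8.

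Vip encodes vasoactive intestinal peptide, which marks interneurons that disinhibit principal cells. Vip had 15.7, 16.8, 16.4 and 13.7 CPM in KI 3 Class V and 20.5, 21.1, 22.6 and 8.73 CPM in KI sham. It had 20.3, 15.4 and 14.5 CPM in KA 3 Class V and 13.8 to 27.7 CPM in KA sham, with a sham median of 17.8. Both pairs of groups overlapped. The differences were −0.22 ± 0.27 in KI and −0.19 ± 0.27 in KA, in log2 (SE, edgeR adjusted p = 0.565 and 0.854).

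Reln and Erbb4 encode the signalling proteins of the set. Reln encodes reelin, a secreted glycoprotein that Cajal-Retzius cells release in development and that many dendritic and neurogliaform interneurons release in the adult. Reln had 103, 97.8, 95.02 and 56.3 CPM in KI 3 Class V, against 34.3, 21.997, 25.6 and 87.3 CPM in KI sham. The groups overlapped because KI 3 Class V 4 was below KI sham 4. Its difference was 1.06 ± 0.50 in log2 (SE, edgeR adjusted p = 0.137). Without KI sham 4 it was 1.66 and passed (edgeR adjusted p = 0.0193), in a fit that called 4297 of all genes. In the KA model Reln had 73.0, 61.9 and 50.7 CPM in KA 3 Class V, and 16.8 to 103 CPM in KA sham with a median of 53.6.

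Erbb4 encodes the neuregulin receptor that parvalbumin cells use to receive and hold excitatory synapses. It had 16.6, 12.2, 15.5 and 13.7 CPM in KI 3 Class V, against 1.45, 4.62, 5.75 and 12.9 CPM in KI sham. KI sham 4 stood inside the KI 3 Class V range, and KI sham 1, with 42 counts, was again the lowest. The difference was 1.22 ± 0.43 in log2 (SE, edgeR adjusted p = 0.0654). Leaving out KI sham 4 gave 1.83, which passed (edgeR adjusted p = 0.00901) in a fit that called 4297 of all genes. Without KI sham 1 the difference was 0.90 (edgeR adjusted p = 0.106). In the KA model Erbb4 had 11.6, 10.9 and 7.81 CPM in KA 3 Class V, and 6.21 to 18.1 CPM in KA sham with a median of 12.2. The differences in KA were 0.12 ± 0.48 for Reln, −0.21 ± 0.42 for Erbb4 and −0.27 ± 0.28 for Calb2 in log2 (SE), with edgeR adjusted p from 0.796 to 0.963.

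**Figure D2:**
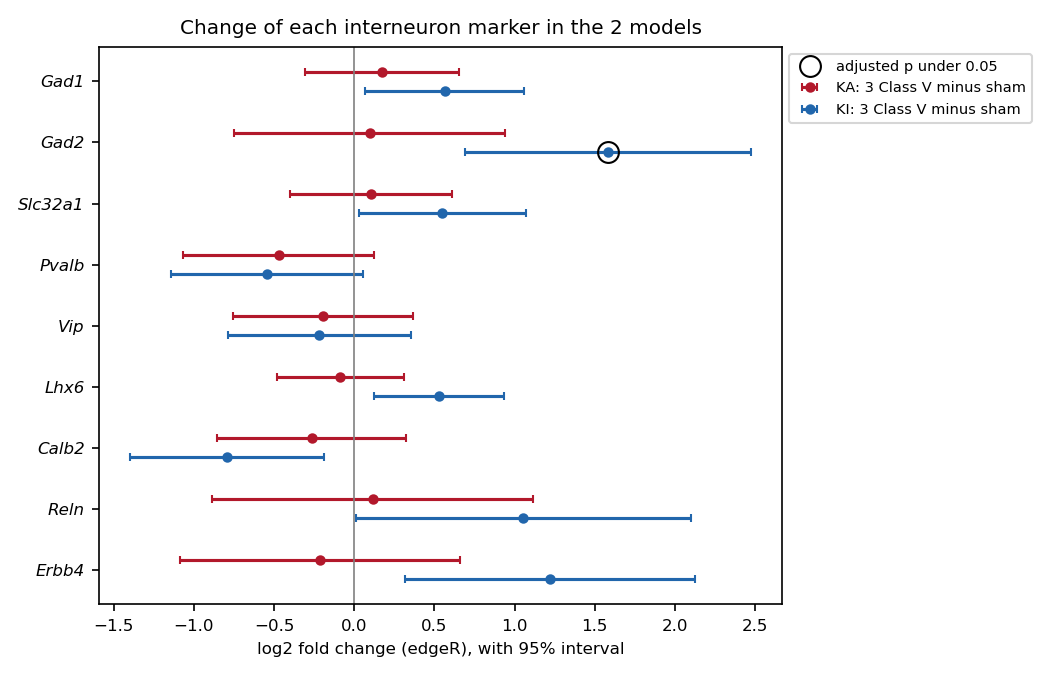
Log2 fold change of each marker (x axis, edgeR estimate with its 95% interval) in the KA model and the KI model, 3 Class V minus sham. The ring marks an adjusted p under 0.05. Only Gad2 in KI is ringed, at 1.58, and all 9 KA intervals include 0.

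Against all genes, the KI count was not high. Of the 9 markers 1 was called in KI, while 9.99% of all genes tested were called, 632 higher (4.74%) and 700 lower (5.25%). With upper quartile factors the split was 333 higher and 978 lower, and without the ribosomal RNA-like genes it was 428 higher and 761 lower. The markers without overlap were 4 higher and 1 lower, where 12.1% of all genes were above and 8.07% below in every library. At an unadjusted p under 0.05 there were 7 of the 9, where 35.4% of all genes passed. DESeq2 called 4 (Gad2, Lhx6, Calb2 and Erbb4), among 2965 of all genes. With limma-voom there were 7, all but Pvalb and Vip, among 7359 of all genes. The median log2 fold change of the 9 markers in edgeR was 0.55, against −0.04 over all genes. In an exact two-sided permutation test over the libraries, Gad1, Gad2, Slc32a1, Lhx6 and Calb2 each gave p = 0.0286, the smallest that 4 against 4 allows, and 0.154 after adjustment over the 27 tests made.

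The Gad2 call in KI rests on few libraries. It was lost (edgeR adjusted p from 0.0515 to 0.105) when any 1 of the KI 3 Class V libraries, KI sham 2 or KI sham 3 was left out, and also when each model was fitted alone (1.59, edgeR adjusted p = 0.0583), when the 3 libraries high in ribosomal RNA-like counts were left out (1.52, edgeR adjusted p = 0.151) and with the ribosomal score in the model (0.93, edgeR adjusted p = 0.106). With each model fitted alone 1 marker other than Gad2 was called, as higher, among 759 of all genes. The number of markers called without 1 library ran from 0 to 4. It was 4 without KA sham 2 and without KI sham 4, where 2445 and 4297 of all genes were called, against 1332.

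In KA, 0 of the 9 markers were called, where edgeR called 0.172% of all genes. At an unadjusted p under 0.05 there were also 0 of the 9, where 9.93% of all genes passed. DESeq2 called 0, and limma-voom called 1, Pvalb, which was lower by −0.51 in log2 (limma-voom adjusted p = 0.0405). Of all genes DESeq2 called 254 and limma-voom 725. The median of the 9 was −0.09, against −0.01 over all genes. In the exact two-sided permutation test over 120 regroupings of the libraries, the lowest p was that of Pvalb, 0.0583.

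The KI and KA changes of a marker were compared directly in 1 contrast, the change in KA less the change in KI, and no marker passed. The models have separate shams, so this difference shares no library between its arms. It was −1.49 ± 0.59 for Gad2, −1.43 ± 0.60 for Erbb4 and −0.61 ± 0.27 for Lhx6 in log2 (SE, edgeR adjusted p = 0.165, 0.189 and 0.211). These 3 were the markers with an unadjusted p under 0.05, where 20.5% of all genes passed that level. Of all genes 3.8% were called, 420 with a KA change above the KI change (3.15%) and 87 below (0.652%). That split was 2237 and 2541 with limma-voom, and 253 and 398 without KI sham 3 and KI sham 4. The other 6 markers ran from −0.94 for Reln to 0.53 for Calb2, and their edgeR adjusted p values from 0.464 to 0.983. DESeq2 called 0 of the 9 and limma-voom 5, where they called 1117 and 4778 of all genes. The KI call for Gad2 is not shown to be particular to that model.

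Between the shams, KA sham stood above KI sham by 0.91 ± 0.39 in log2 for Erbb4 and 0.77 ± 0.38 for Gad2 (SE, n = 7 and 4, edgeR adjusted p = 0.564 for both). No marker was called, and edgeR called 0.0075% of all genes, which is 1 gene. Erbb4 was the 1 marker with an unadjusted p under 0.05, where 8.63% of all genes passed. Both shams overlapped for all 9 markers. With KI sham 3 and KI sham 4 left out, the Erbb4 difference was 1.92 and passed (edgeR adjusted p = 0.0374). Those were the KI shams highest in Erbb4, at 5.75 and 12.9 CPM, and the fit without them called 625 of all genes.

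By mean level, KI 3 Class V was the highest of the 4 groups for Gad1, Gad2, Slc32a1, Lhx6, Reln and Erbb4, and KI sham the lowest. KI sham was the highest for Pvalb and Calb2, and KA sham for Vip. The order of neighbours was clear of overlap only at the top for Gad2 and Slc32a1, where every KI 3 Class V library was above every KA 3 Class V library. All other neighbours in the order shared part of their range. The spread within a group differed as well. The coefficient of variation of Gad1 was 5.65% in KA 3 Class V, 36.1% in KA sham, 6.88% in KI 3 Class V and 8.31% in KI sham. For Gad2 it was 5.66% in KA 3 Class V, 43.7% in KA sham, 7.96% in KI 3 Class V and 58.5% in KI sham.

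The 6 markers with a positive KI estimate, Gad1, Gad2, Slc32a1, Lhx6, Reln and Erbb4, ran together across the 18 libraries. They were picked by that estimate, and the 18 libraries include the KI libraries it came from, so the choice can raise r. The permutations also crossed the groups, so p covers differences between groups as well as covariation within them. Over the 15 pairs of these 6 markers Pearson r was 0.48 to 0.95 and Spearman rho 0.66 to 0.94. Permutation p was 0.0415 or less for r and 0.00322 or less for rho. After adjustment over all 36 pairs of markers these were 0.0679 or less and 0.00644 or less, and 13 of the 15 values of r and all 15 of rho were under 0.05. Without the 2 libraries farthest in the first gene of each pair r was 0.42 to 0.91, and after subtracting group means it was 0.25 to 0.94. Gad1 and Slc32a1 followed each other (Pearson r = 0.95, Spearman rho = 0.94, permutation p = 1e-05 for both, the smallest that the draws can give), and r was 0.91 without the 2 libraries farthest from the Gad1 median. Gad2 followed Erbb4 (r = 0.94, permutation p = 1e-05, and rho = 0.84, permutation p = 6e-05), with r = 0.84 without the 2 farthest libraries. Gad2 and Pvalb ran opposite ways (r = −0.77, permutation p = 0.00075, and rho = −0.68, permutation p = 0.00203). That relation fell to r = −0.40 without the 2 libraries farthest in Gad2, so it rests in part on them. Pvalb and Vip ran together (r = 0.63, permutation p = 0.00723, and rho = 0.60, permutation p = 0.0101, with r = 0.66 without the 2 farthest). After adjustment over the 36 pairs the Pearson p was 9e-05 for Gad1 with Slc32a1 and for Gad2 with Erbb4, 0.003 for Gad2 with Pvalb and 0.0174 for Pvalb with Vip. After subtracting group means the values of r for these pairs were 0.93, 0.94, −0.88 and 0.62.

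Most markers also followed the ribosomal protein score. Over the 18 libraries Pearson r with the score was −0.83 for Gad1, −0.83 for Gad2, −0.83 for Slc32a1, −0.92 for Reln, −0.78 for Erbb4 and −0.61 for Lhx6. It was 0.69 for Pvalb and 0.73 for Vip, and −0.01 for Calb2. Spearman rho ran from −0.92 for Reln to 0.69 for Vip. For all but Calb2 the permutation p was 0.00706 or less for r and 0.00485 or less for rho, and after adjustment over the 9 relations 0.00794 or less and 0.00546 or less. For Calb2 the permutation p was 0.980 for r and 0.383 for rho, and r was −0.425 after subtracting group means. The permutations crossed the groups, so p covers differences between groups as well as covariation within them. Without the 2 libraries of most extreme score r was −0.92 for Reln, −0.84 for Gad2 and 0.50 for Pvalb, and after subtracting group means it was −0.90, −0.80 and 0.67. With the score in the model the KI difference was 0.11 for Gad1, 0.07 for Slc32a1, 0.11 for Reln, 0.31 for Lhx6, 0.64 for Erbb4 and −1.06 for Calb2 in log2, and 0 of the 9 markers were called.

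**Figure D3:**
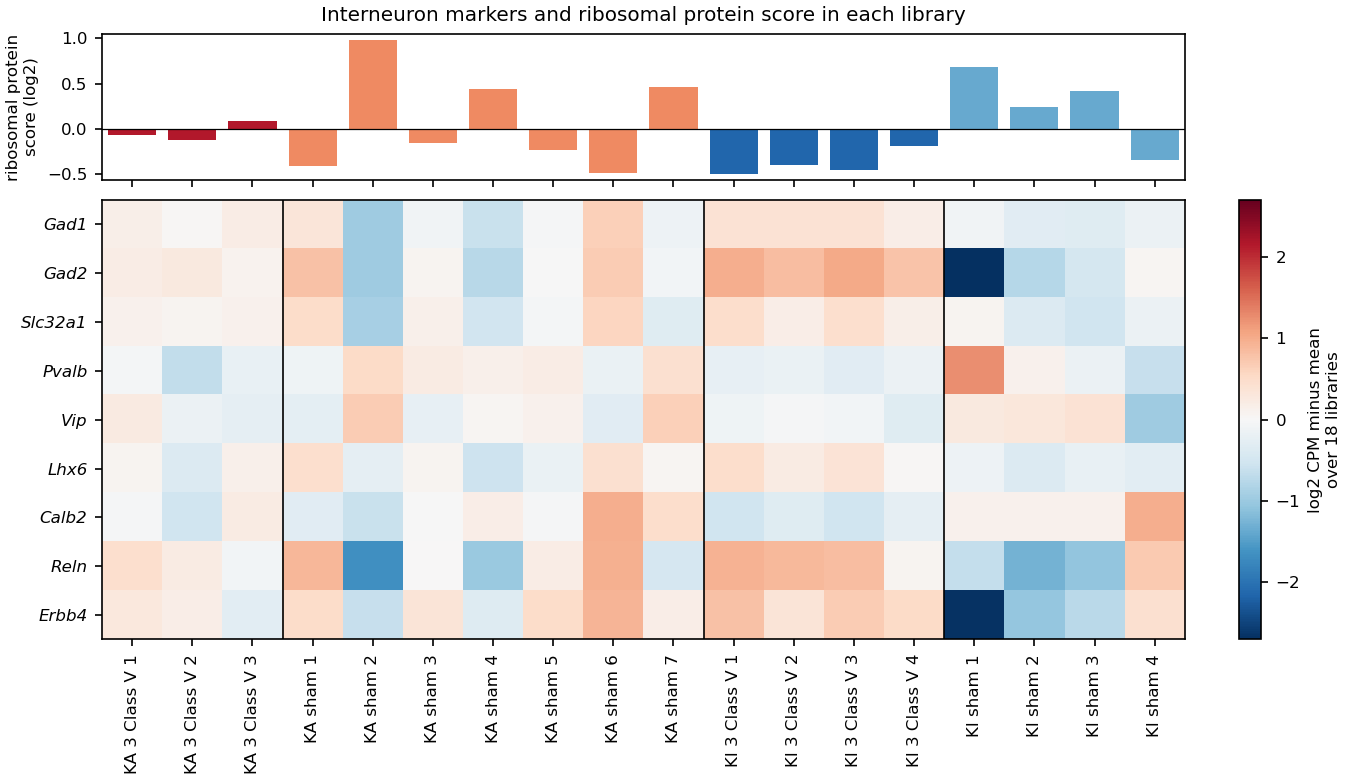
Top, the ribosomal protein score of each library (y axis, log2). Bottom, log2 CPM of each marker minus its mean over the 18 libraries, with libraries in columns by group, red above the mean and blue below. KA sham 2 and KI sham 1, with scores of 0.97 and 0.69, are blue for Gad2, Reln and Erbb4 and red for Pvalb.

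The genes most like the mean of Gad1, Gad2 and Slc32a1 over the 18 libraries were not interneuron genes by common use. By Pearson r of log2 CPM they were Kif3c, a kinesin motor subunit (0.97), Nsf, the ATPase that takes apart SNARE complexes (0.97), Tenm2, a teneurin adhesion protein (0.97), Spock1, a brain proteoglycan (0.97), and Btrc, the substrate subunit of a ubiquitin ligase (0.97). After subtracting group means r was 0.97, 0.96, 0.95, 0.96 and 0.94. Of 11220 genes ranked this way, Reln came at 326 (r = 0.90), Erbb4 at 1062 (r = 0.82) and Lhx6 at 1319 (r = 0.79). Calb2 came at 6240, Vip at 8332 and Pvalb at 8959, with r of −0.11, −0.55 and −0.65.

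Beside the markers stand 7 lists of 74 entries that cover the GABA cycle, interneuron transcription factors, genes of the main interneuron classes, and neuregulin and reelin signalling. Of these, 68 were in the table and all 68 were tested. In KI, 5 rose and 1 fell, or 8.82%, near the 9.99% of all genes. The KI median of each list was 0.32 for the GABA cycle, 0.31 for transcription factors, 0.40 for parvalbumin, 0.61 for somatostatin and NPY, 0.02 for CCK, VIP and neurogliaform genes, 0.06 for neuregulin and 0.35 for reelin, in log2. It was −0.04 over all genes and 0.36 for both the pan-neuronal and the excitatory markers. In KA 0 passed. In the contrast between the models 0 passed in either direction too, where 3.8% of all genes did. The 5 that rose in KI were Sp8, Crhbp, Cnr1, Pafah1b1 and Dab1, and the 1 that fell was Cox6a2.

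In the GABA cycle 0 of 8 genes passed in either model. Slc6a13, a GABA transporter of the meninges and vessels, had 2.08 to 3.63 CPM in KI 3 Class V and 4.14 to 11.9 CPM in KI sham (−1.17 ± 0.39, edgeR adjusted p = 0.0576). Aldh5a1, the succinate semialdehyde dehydrogenase that ends GABA breakdown, had 159 to 167 CPM in KI 3 Class V and 105 to 150.03 CPM in KI sham (0.32 ± 0.11, edgeR adjusted p = 0.0583). Slc38a1, a neuronal glutamine transporter, had 49.8 to 55.1 CPM in KI 3 Class V and 11.6 to 47.7 CPM in KI sham (0.79 ± 0.28, edgeR adjusted p = 0.0672). None of the 3 overlapped between the KI groups. In KA the 3 genes of smallest p were Slc6a13 (−0.41 ± 0.38), the GABA transaminase Abat (−0.21 ± 0.24) and the astrocyte GABA transporter Slc6a11 (−0.22 ± 0.26), in log2 (SE), with edgeR adjusted p from 0.757 to 0.818.

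Among 12 interneuron transcription factors tested, 1 rose and 0 fell in KI. Sp8, a zinc finger factor of interneurons born in the caudal ganglionic eminence, had 1.58 to 2.69 CPM in KI 3 Class V and 0.484 to 1.33 CPM in KI sham, without overlap (1.14 ± 0.29, edgeR adjusted p = 0.0333). Dlx2, a homeobox factor that starts the GABAergic programme, had 0.52 ± 0.23 in KI, and its close relative Dlx1 had 0.27 ± 0.14 (SE, edgeR adjusted p = 0.113 and 0.164). In KA the smallest p values were those of Dlx1 (−0.19 ± 0.13), the leucine zipper factor Maf (0.26 ± 0.20) and the chromatin organizer Satb1 (−0.26 ± 0.20), with edgeR adjusted p from 0.663 to 0.707.

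Of 10 parvalbumin cell genes tested, 0 rose and 1 fell in KI. Cox6a2, a cytochrome oxidase subunit of fast-spiking cells, had 0.169 to 0.315 CPM in KI 3 Class V and 0.351 to 1.87 CPM in KI sham, a low level in every library (−2.01 ± 0.53, edgeR adjusted p = 0.0348). Kcnc2, a fast potassium channel, had 44.5 to 64.0 CPM in KI 3 Class V and 33.6 to 42.9 CPM in KI sham (0.62 ± 0.22, edgeR adjusted p = 0.0652), and the metabolic regulator Ppargc1a had 16.1 to 17.5 CPM in KI 3 Class V and 2.11 to 13.3 CPM in KI sham (0.87 ± 0.32, edgeR adjusted p = 0.0727). Neither passed, although neither overlapped. In KA, Gjd2, the neuronal gap junction protein, had 5.18 to 6.04 CPM in KA 3 Class V and 5.60 to 16.1 CPM in KA sham (−0.72 ± 0.26, edgeR adjusted p = 0.279). Next in KA came the tachykinin gene Tac1 (−0.55 ± 0.28) and Kcnc2 (−0.17 ± 0.21), neither of which passed (edgeR adjusted p = 0.541 and 0.839).

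Somatostatin and NPY cell genes numbered 10, of which 1 rose and 0 fell in KI. Crhbp, the binding protein of corticotropin-releasing hormone, had 16.7 to 20.4 CPM in KI 3 Class V and 5.88 to 15.4 CPM in KI sham (1.02 ± 0.28, edgeR adjusted p = 0.0390). Without KI sham 3 and KI sham 4 this was 0.69 and did not pass (edgeR adjusted p = 0.115). Nxph1, a neurexin ligand of interneurons, had 0.49 ± 0.16, and Chrna2, a nicotinic receptor subunit of dendrite-targeting cells, had 0.73 ± 0.25 (edgeR adjusted p = 0.0591 and 0.0619). In KA, Npy, the gene of neuropeptide Y, ranged from 113 to 877 CPM over the 3 KA 3 Class V libraries and from 69.1 to 337 CPM in KA sham, and did not pass (1.62 ± 0.51, edgeR adjusted p = 0.214). Pnoc, which encodes the nociceptin precursor, had 0.44 ± 0.24, and Elfn1, a postsynaptic adhesion protein of somatostatin cells, had −0.27 ± 0.17 in KA (edgeR adjusted p = 0.579 and 0.626).

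Of 9 CCK, VIP and neurogliaform cell genes tested, 1 rose and 0 fell in KI. Cnr1, the cannabinoid receptor of CCK basket cells that other neurons also carry, had 249 to 334 CPM in KI 3 Class V and 126 to 211 CPM in KI sham (0.97 ± 0.26, edgeR adjusted p = 0.0360). Crh, the gene of corticotropin-releasing hormone, had 0.97 ± 0.33, and Kit, a receptor tyrosine kinase, 0.96 ± 0.34 (edgeR adjusted p = 0.0621 and 0.0654). In KA, Lamp5, a marker of neurogliaform cells, had 16.6 to 35.9 CPM in KA 3 Class V and 25.1 to 65.4 CPM in KA sham (−0.79 ± 0.30, edgeR adjusted p = 0.328). The vesicular glutamate transporter Slc17a8 had −0.38 ± 0.27 and Crh −0.38 ± 0.33 in KA (edgeR adjusted p = 0.678 and 0.736).

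Neuregulin and ERBB signalling holds the ligands, sheddases and receptors around Erbb4, and 0 of its 11 tested genes passed in either model. In KI the smallest p values were those of the ligand Nrg4, at 0.0563 to 0.225 CPM in KI 3 Class V and 0.277 to 1.18 CPM in KI sham (−2.25 ± 0.73, edgeR adjusted p = 0.0558), the protease Bace1 (0.56 ± 0.28, edgeR adjusted p = 0.154) and the receptor Egfr (0.67 ± 0.37, edgeR adjusted p = 0.196). In KA, Hbegf, a heparin-binding ligand of Erbb4 and Egfr, had 5.14 to 10.6 CPM in KA 3 Class V and 3.03 to 5.202 CPM in KA sham (0.79 ± 0.20, edgeR adjusted p = 0.109). Dlg4, a postsynaptic scaffold that binds Erbb4, had −0.35 ± 0.15, and the co-receptor Erbb2 had 0.36 ± 0.16 in KA (edgeR adjusted p = 0.423 and 0.471).

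Reelin signalling had 2 of 8 tested genes higher in KI and 0 lower. Pafah1b1, a dynein regulator downstream of reelin, had 477 to 579 CPM in KI 3 Class V and 207 to 444 CPM in KI sham (0.75 ± 0.20, edgeR adjusted p = 0.0370). Dab1, an adaptor of reelin receptors, had 35.1 to 39.3 CPM in KI 3 Class V and 24.4 to 32.05 CPM in KI sham (0.38 ± 0.11, edgeR adjusted p = 0.0458). Vldlr, a reelin receptor, had 0.52 ± 0.18 in log2 (SE, edgeR adjusted p = 0.0621). In KA the smallest p values were those of Dab1 (−0.20 ± 0.11), the adaptor Crkl (0.21 ± 0.24) and the kinase Src (−0.06 ± 0.13), with edgeR adjusted p from 0.597 to 0.915.

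Each of the 6 pathway calls in KI was lost with the ribosomal score in the model, and without the 3 libraries high in ribosomal RNA-like counts. Leaving out 1 of the 18 libraries ended the call for Sp8 in 5 cases, Cox6a2 in 5, Cnr1 in 6, Pafah1b1 in 6, Crhbp in 7 and Dab1 in 15. Fitted on the KI libraries alone, Cnr1 was still called and the other 5 were not. The plot of pathway changes places the 6 among the other genes of their lists.

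**Figure D4:**
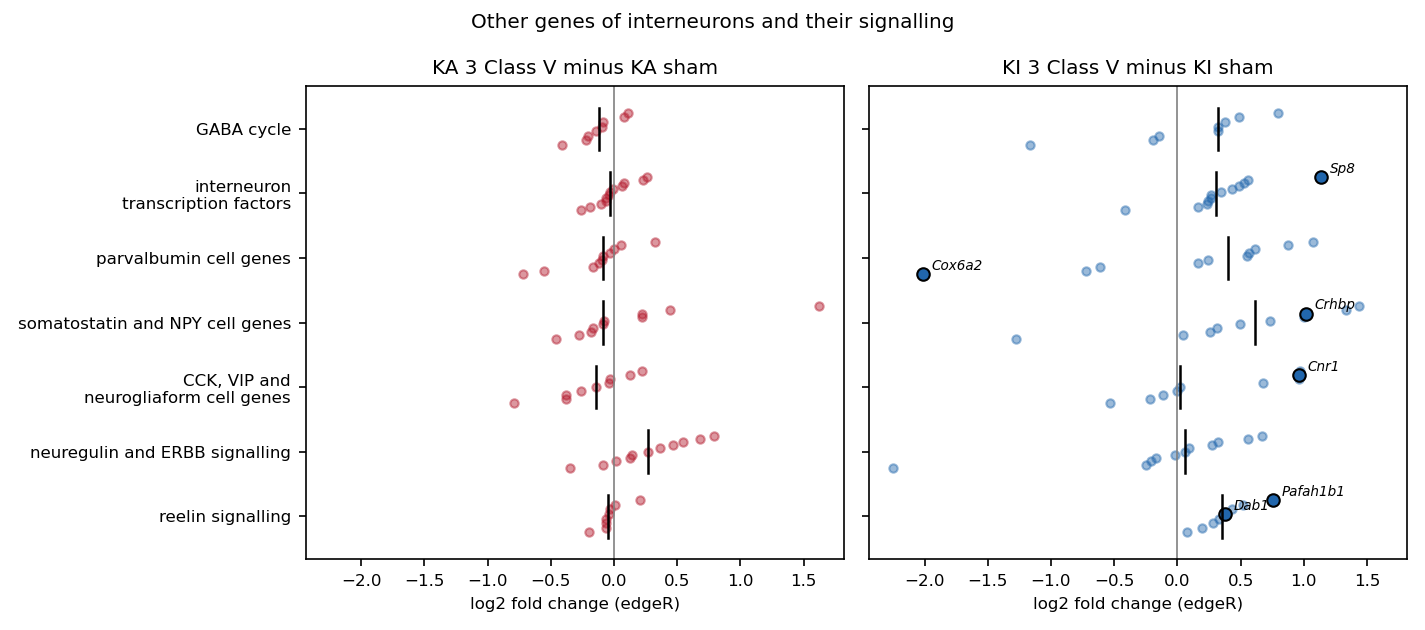
Log2 fold change (x axis, edgeR) of each gene of the 7 pathway lists in the KA model (left) and the KI model (right), 3 Class V minus sham. Points are genes, spread vertically within their list, the black line is the list median, and outlined, named points passed the test. The 6 named genes are all in KI, from Cox6a2 at −2.01 to Sp8 at 1.14.

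Listed markers of other cell types also differed in KI, some higher and some lower, and their part in the marker results was not tested. Over all genes tested, edgeR called 9.99% in KI, and 12.1% stood above and 8.07% below every sham. A single call in so short a list is not read as a change of its cell type. The summed level of 9 pan-neuronal genes was 7092 to 8236 CPM in KI 3 Class V and 5314 to 6170 CPM in KI sham, and 2 of the 9, Syn1 and Syt1, rose (0.72 and 1.21 in log2, edgeR adjusted p = 0.0330 and 0.0450). Of 11 excitatory neuron markers 1 rose, the vesicular glutamate transporter Slc17a7 (0.65, edgeR adjusted p = 0.0495). Their sum overlapped between the groups, at 6286 to 8076 CPM in KI 3 Class V and 5633 to 7286 CPM in KI sham. Oligodendrocyte markers summed to 9815 to 13805 CPM in KI 3 Class V and 15701 to 21054 CPM in KI sham, and 2 of 7 fell. Thalamus and habenula markers summed to 43.3 to 56.5 CPM in KI 3 Class V and 58.1 to 122 CPM in KI sham, and 3 of 6 tested fell. The 122 CPM was in KI sham 4, and the other KI shams had 58.1 to 63.6 CPM. Microglia markers summed to 378 to 396 CPM in KI 3 Class V and 431 to 844 CPM in KI sham, and 3 of 7 fell. Astrocyte markers summed to 7476 to 9072 CPM in KI 3 Class V and 6166 to 9977 CPM in KI sham, and 1 of 7, Aqp4, rose (0.61, edgeR adjusted p = 0.0486). Of 4 oligodendrocyte precursor markers 1 fell, C1ql1 (−0.64, edgeR adjusted p = 0.0256), and of 5 endothelial markers 1 fell, Cldn5 (−0.53, edgeR adjusted p = 0.0463). In these lists 3 of 4 and 3 of 5 estimates were positive, and both sums overlapped between the KI groups.

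Cajal-Retzius cells also express Reln and Calb2. Their 5 markers summed to 5.64 to 7.40 CPM in KI 3 Class V and 4.23 to 15.01 CPM in KI sham. The highest value was in KI sham 4, which among the KI shams was also the highest in Reln and Calb2. KA sham 6 had the next highest marker sum of the 18 libraries, 9.67 CPM, with 103 CPM of Reln and 35.5 CPM of Calb2. The part of these cells in the Reln and Calb2 levels was not tested. Striatal neuron markers, of another GABAergic tissue, summed to 146 to 153 CPM in KI 3 Class V and 154 to 231 CPM in KI sham, and 0 of 7 passed. Choroid plexus markers summed to 16.3 to 37.6 CPM in KI 3 Class V and 21.1 to 988 CPM in KI sham, the highest again in KI sham 4. In KA, microglia markers summed to 740.0 to 1033 CPM in KA 3 Class V and 384 to 801 CPM in KA sham, where 0 of 7 passed. Astrocyte markers summed to 12709.9 to 14637 CPM in KA 3 Class V and 5891 to 12053 CPM in KA sham, and 1 of 7, Gfap, rose (1.24, edgeR adjusted p = 0.0410). Of these 7 estimates 4 were positive and 3 negative, with a median of 0.09 in log2. In KA edgeR called 0.172% of all genes. Excitatory neuron markers summed to 5067 to 5929 CPM in KA 3 Class V and 6354 to 7503 CPM in KA sham, and 0 of 11 passed. Oligodendrocyte markers summed to 13602 to 14027 CPM in KA 3 Class V and 12388 to 34782 CPM in KA sham, and 0 of 7 passed, with 7 negative estimates and 5 at an unadjusted p under 0.05. No listed marker was at 0 in all 18 libraries.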

How the data were processed

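The deposited table gives raw, unnormalized read counts for each gene symbol, in 1 column per library. The submitters' processing notes name the tools FastQC, Trimmomatic, HISAT2, featureCounts and, last, DESeq2, and the build rn6. Per the labels, single-end reads of 110 bases came from NEBNext Ultra II libraries of polyadenylated RNA. Neither the annotation nor the strand and multiple-mapping settings are stated in these sources, so counts of genes that overlap are uncertain.

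Columns were matched to samples by the library name in the labels. The labels do not state that every library is a separate animal, so p-values measure the spread between libraries, which may be partly technical. No 2 libraries of a group were the same within sampling noise: chi-square over degrees of freedom was 19.8 to 582.8 in 36 pairs. The labels do not say whether replicate numbers pair the libraries, and the main fit did not pair them.

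All 18 libraries entered 1 fit of group means in edgeR 4.0.16 under R 4.3.3 (TMM factors, filterByExpr, robust quasi-likelihood F test). Tests were two-sided with Benjamini-Hochberg adjustment over 13338 genes. SE is the absolute log2 fold change over the square root of F. CPM were scaled by library size and TMM factor, and 2 was the prior count for log2 CPM. The alternatives were DESeq2 1.42.0, limma-voom (limma 3.58.1), other factors and filters (1 CPM in 3 libraries, or none), each model alone, subsets of libraries, a replicate block and a ribosomal protein covariate. Correlations used 100000 permutations.

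The 9 markers and all lists were chosen with earlier results of these data known. Named are all 9 markers, every listed pathway gene called, up to 3 per list with the smallest p in each model, and the 5 genes most like Gad1, Gad2 and Slc32a1. Syn1, Syt1, Slc17a7, Aqp4, C1ql1, Cldn5 and Gfap were named after their values were seen. Of the listed genes, Dlx6, Acan, Ndnf, Nrg3, Lrp8, Rapgef1, Dsp and Pou4f1 were not analysed here, and 2 other listed genes are not reported here. Promoter sequences are from RefSeq on GRCr8, with entries for 8 of the 9 markers, and all 9 symbols matched its gene list.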

Additional observations from a re-analysis of the deposited data

Results flagged for a closer look

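Of 27 sets of marker levels within a group of 4 or 7 libraries, 4 had a library whose gap to the next was large for the range of its group. Chance alone gives such a gap in about 1 of 20 groups. Gad1 in KI 3 Class V 4 was 193 CPM, against 221 to 223 CPM in the other 3 KI 3 Class V libraries. Reln in the same library was 56.3 CPM, against 95.02 to 103 CPM in the others. KI sham 4 held the other two: Vip at 8.73 CPM, against 20.5 to 22.6 CPM in the other KI shams, and Calb2 at 35.4 CPM, against 19.4 to 19.6 CPM. In KI sham 4 the ribosomal protein score was −0.34, and in the other KI shams it was 0.24 to 0.69.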

How the results depend on the processing

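The number of markers called in KI was 1, Gad2. With each model alone it was also 1, a marker other than Gad2. It was 4 with DESeq2, 7 with limma-voom, 4 without KI sham 3 and 4, 2 without KA sham 2 and KI sham 1, and 0 without the 3 libraries high in ribosomal RNA-like counts, with the replicate block or with the ribosomal protein covariate. Without 1 library it ran from 0 to 4. In KA it was 0, but 1 with limma-voom. For the difference between models it was 0, but 5 with limma-voom, 1 without KI sham 3 and 4, 1 without KA sham 2 and KI sham 1, and 0 to 1 without 1 library. Between shams it was 0, but 1 with limma-voom and 1 without KI sham 3 and 4. The last subsets, of KA sham 2 with KI sham 1 and of the 3 libraries, were chosen after seeing the data.

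Of all genes, KI called 1332, against 2965 with DESeq2, 7359 with limma-voom, 759 with each model alone, 0 with the replicate block, 105 with the covariate, 3740 without KI sham 3 and 4, 17 without the 3 libraries, and 9 to 4297 without 1 library. KA called 23, against 254 with DESeq2, 725 with limma-voom, 3 with the block, 205 with the covariate, 69 without KI sham 3 and 4, 90 without KA sham 2 and KI sham 1, and 9 to 110 without 1 library. The difference between models called 507, against 1117 with DESeq2, 4778 with limma-voom, 11 with the block, 1025 with the covariate, 1301 without KA sham 2 and KI sham 1, and 56 to 897 without 1 library. The shams called 1, against 11 with DESeq2, 411 with limma-voom, 0 with the block, 6 with the covariate, 625 without KI sham 3 and 4, 0 without the 3 libraries, and 1 to 3 without 1 library. The causes were not tested. Same-numbered libraries did not deviate together (r from −0.17 to 0.01), but this cannot settle whether animals were paired. With the replicate block Gad2 in KI was 1.82 (edgeR adjusted p = 0.131).

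Of 1098 marker values under the alternatives, 49 changed sign, none of them called in either fit. In KA, Gad2 was −0.025 without KA sham 2 and KI sham 1 and −0.024 without the 3 libraries, Reln −0.045 and −0.021 there, Slc32a1 −0.0033 without KA sham 2 and KI sham 1, Vip 0.051 with limma-voom and Calb2 0.19 with the block. In KI, Pvalb was 0.0030 and Vip 0.33 with the covariate. For the difference between models the covariate gave 0.048 for Gad1, 0.021 for Slc32a1, 0.033 for Reln, −0.39 for Pvalb and −0.39 for Vip. Pvalb was also −0.22 with limma-voom, −0.14 with the block and −0.38 without KA sham 2 and KI sham 1, and Vip −0.089 without the 3 libraries. Between shams, Gad1 was −0.080 with the block and −0.018 with the covariate, Pvalb 0.13 with limma-voom, 0.0045 with the block, 0.075 with the covariate and 0.32 without KA sham 2 and KI sham 1, Vip −0.31 with limma-voom and −0.14 without KI sham 3 and 4, and Calb2 0.050 without KI sham 3 and 4. Without 1 library, the ranges that crossed 0 were −0.024 to 0.25 for Gad2, −0.0032 to 0.22 for Slc32a1, −0.19 to 0.050 for Lhx6 and −0.045 to 0.32 for Reln in KA, −0.44 to 0.30 for Pvalb and −0.12 to 0.28 for Vip between models, and −0.37 to 0.38 for Pvalb, −0.19 to 0.18 for Vip and −0.39 to 0.036 for Calb2 between shams.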
